A study of Mus musculus with 8 samples.

Results

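The response to lipopolysaccharide (LPS) in the presence of HF, a fraction that hexane extracts from the mushroom Amauroderma rugosum, was measured in BV-2 cells, an immortalised mouse line used as a model of microglia. It was read from 4 of the 8 arrays of the study: 2 arrays of cells given HF at 100 µg/mL together with LPS at 1 µg/mL (LPS+HF) and 2 arrays of cells given HF at 100 µg/mL alone (HF), all for 24 h. Both groups had thus received HF, and LPS was the only labelled difference between them. The other 4 arrays, 2 of untreated cells (control) and 2 of cells given LPS at 1 µg/mL alone (LPS), show the response without HF and are used here for comparison. The study calls the arrays biological duplicates, and nothing says whether they came from separate cultures, so the errors and p-values measure the spread between these arrays, which may be technical. BV-2 is 1 cell line kept in culture, and HF is an extract whose components are not named in the labels.

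LPS, a glycolipid on the surface of Gram-negative bacteria, is passed by LBP and CD14 to the receptor complex of TLR4 and MD-2 on macrophages and microglia. Signalling through MyD88 frees NF-kB from its inhibitor IkB and switches on inflammatory cytokines, chemokines and enzymes, together with inhibitors that end the signal. Signalling through TRIF activates IRF3 and interferon beta, which acts back on the cells through STAT proteins and induces antiviral genes. In microglia this state is known for nitric oxide, prostaglandin and cytokine release.

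Each array measured 55681 probes that were not controls, on a grid of 384 rows of spots. The level of a gene is the log2 brightness of its probe minus the array's 75th percentile, so that 0 is that percentile. The 75th percentile itself was 347 and 472 intensity units on the HF arrays and 527 and 455 on the LPS+HF arrays, and 52.3% to 55.0% of probes per array were well above background. Repeated probes varied by 8.06% (coefficient of variation) on HF replicate 1, which the scanner's report marked for evaluation, and by 3.77% to 3.99% on the other 3 arrays. The difference between replicates over the genes tested had an SD of 0.50 log2 units in HF and 0.32 in LPS+HF. The study used 1 slide and 1 scan for the 8 arrays. The HF arrays stood in columns 1 and 2 of the slide and the LPS+HF arrays in columns 3 and 4, so position on the slide and LPS cannot be told apart. In spot rows 1 to 70, 632 probes (6.07% of 10417) were above background on HF arrays and on no other array and were left aside. The same pattern was met in 3.97% of probes in rows 71 to 140 and in 0.468% in rows 281 to 384, where such probes were kept.

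The cells carried the markers of their labelled type. All 14 macrophage and microglia markers were above background on all 4 arrays, among them Cd68, Csf1r and Itgam, and their summed level was 9.41 and 9.41 in HF and 9.70 and 9.55 in LPS+HF. Of the 14, 3 rose with LPS, the macrophage adhesion receptor Adgre1 by 1.44, the perforin-like Mpeg1 by 1.75 and the LPS co-receptor Cd14 by 1.61 log2 units. Of the fibroblast markers 1 of 7 was above background on all 4 arrays, and of the neuronal markers 1 of 9. The shares were higher for the astrocyte markers (3 of 8), the lymphocyte markers (5 of 9), the endothelial markers (5 of 7) and the oligodendrocyte markers (7 of 8). The summed endothelial level was 6.14 and 5.98 in HF and 5.12 and 5.01 in LPS+HF, and the summed oligodendrocyte level 5.92 and 5.09 against 4.51 and 4.51, while the defining genes Tek and Olig2 were above background on none of the 4 arrays. The other sums were 6.60 and 6.83 in HF and 6.86 and 6.42 in LPS+HF for astrocytes, 3.81 and 3.50 against 3.50 and 3.70 for lymphocytes, 2.96 and 2.87 against 2.72 and 2.94 for neurons, and -0.35 and -1.53 against -1.81 and -1.54 for fibroblasts. The lymphocyte marker Cd79b rose by 1.51 and the endothelial marker Flt1 fell by 1.43 log2 units. The part of other cell types in the results below was not tested. In RNA from whole cultures, fewer cells of a type and less RNA per cell cannot be told apart.

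In cells that had HF, genes that rose with LPS included 8 of 20 cytokines, 7 of 12 acute-phase proteins and 17 of 42 interferon-stimulated genes tested, while Arg1 and Ccl24 were among the genes that fell. Of the members tested, 7, 3 and 4 in the same order were dim on both HF arrays and were tested because they were bright in LPS+HF. With only probes above background on all 4 arrays, 2 of 12, 5 of 9 and 17 of 37 rose, beside 245 of 20339 genes. Of the 21669 genes tested, 336 (1.55%) passed an adjusted p of 0.05 (limma, Benjamini-Hochberg over all genes, two-sided), 250 (1.15%) higher and 86 (0.397%) lower in LPS+HF than in HF. The rises were the larger changes: 236 of the 250 were at least 2-fold and 51 at least 8-fold, with a median of 1.87 log2 units. Of the 86 falls, 78 were at least 2-fold and 8 at least 8-fold, with a median size of 1.42. The median over all genes was -0.08, and 62.6% of genes were lower in LPS+HF. Genes with an approved-style symbol passed in 2.12% of 12740 cases and probes for unnamed chromosomal regions in 0.433% of 3003. These counts depend on single arrays: 185 genes passed without HF replicate 1 and 935 without HF replicate 2. With all 8 arrays in the fit 240 (1.11%) passed, and with the LPS arrays added the number was 928 (4.28%). When LPS+HF replicate 1 or LPS+HF replicate 2 was left out, 0 genes passed in limma, with 2063 and 2569 at an unadjusted p under 0.05, so each gene group below then had 0 passes as well.

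**Figure D1:**
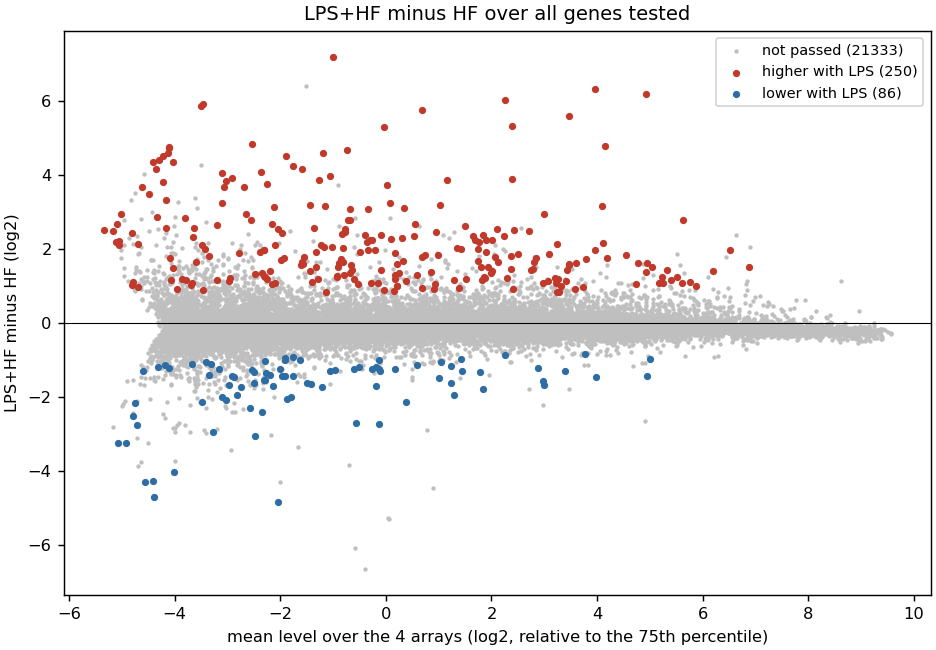
Difference LPS+HF minus HF (log2, vertical axis) against the mean level over the 4 arrays (log2 relative to the 75th percentile, horizontal axis) for the 21669 genes tested. Red points are the 250 genes that passed higher with LPS and blue points the 86 that passed lower; among the genes that passed, the rises reach further from 0 than the falls.

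Large rises were seen in a transcription factor, a scavenger receptor and secreted defence proteins. Batf, an AP-1 family transcription factor of immune cells, had a level of -4.93 and -4.27 on the HF arrays and 2.68 and 2.51 on the LPS+HF arrays. It was thus dim in HF, above background on 1 of 2 arrays, and bright in LPS+HF, a difference of 7.19 ± 0.25 (SE; adjusted p = 0.0081). Marco, a scavenger receptor that takes up bacteria, rose from 0.77 and 0.81 to 7.08 and 7.16. The replicates of Marco lay far closer to each other than the groups did, and the difference was 6.33 ± 0.10 (adjusted p = 0.00376), or 80.5-fold. Vnn3, of the pantetheinase family, was -2.73 and -2.66 in HF and 2.92 and 2.32 in LPS+HF, above in both LPS+HF arrays (5.31 ± 0.23, adjusted p = 0.00909). The zinc-finger gene Zfp811 was -6.13 and -6.75 in HF, below background on both arrays, and -0.57 and -0.56 in LPS+HF, a rise of at least 13.3-fold (adjusted p = 0.0081).

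The acute-phase proteins, which are secreted in inflammation and bind lipids or withhold metal from microbes, gave 3 of the 12 largest rises. Saa3, the serum amyloid A form that macrophages make, had levels of 1.72 and 1.94 in HF and 8.22 and 7.83 in LPS+HF, and on the LPS+HF arrays was high on both. Its difference was 6.20 ± 0.18 (adjusted p = 0.00635). Lcn2, the lipocalin that captures bacterial iron carriers, went from -0.63 and -0.92 to 5.47 and 5.07, with no overlap between groups (6.04 ± 0.20, adjusted p = 0.00737). Saa1 rose by 5.59 and haptoglobin (Hp), which binds free haemoglobin, by 2.95. Saa2, not well above background in HF, rose at least 4.1-fold and Orm2 at least 2.68-fold, where the bound sets the LPS+HF mean against the dimmest signal above background. Saa1 and Saa2 are near-identical genes whose probes may bind both transcripts, as may those of Orm1 and Orm2. Of the 12 members tested, 7 rose and 0 fell; the metallothioneins Mt1 (-0.47) and Mt2 (-0.44) did not pass. Over all 15 members on the array the median was 1.98, against -0.08 over all genes tested.

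**Figure D2:**
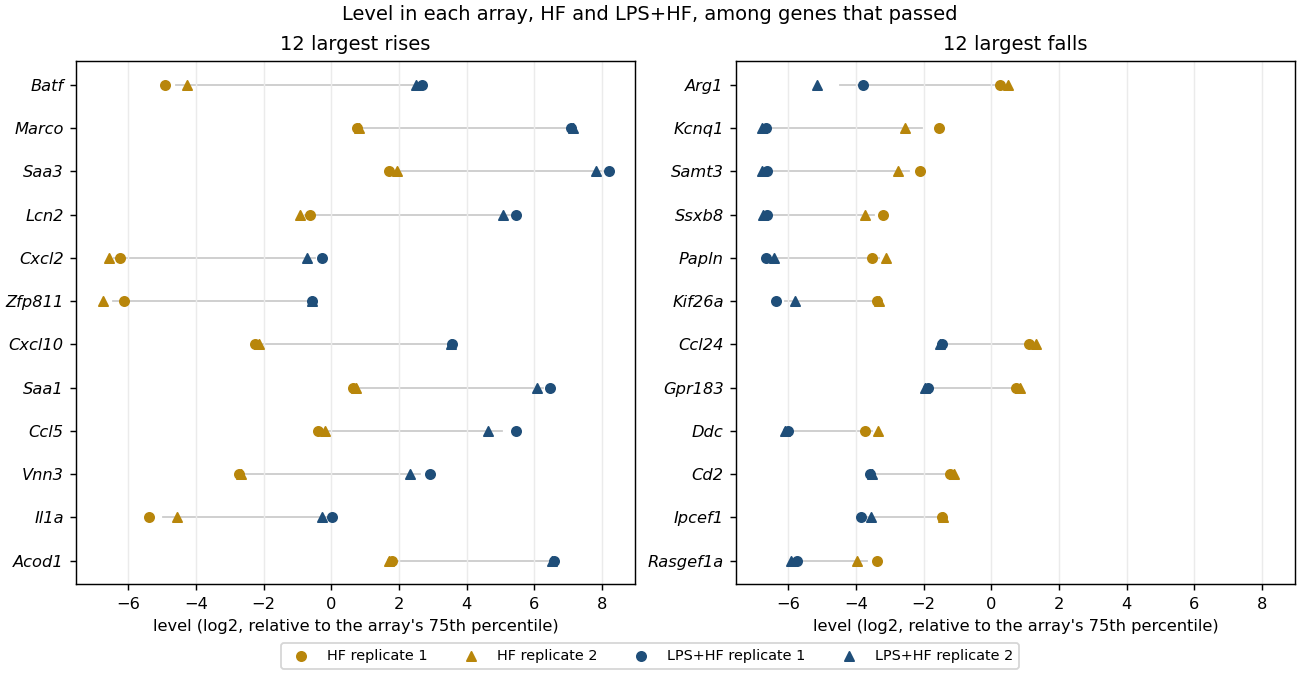
Level (log2 relative to each array's 75th percentile, horizontal axis) of the 12 largest rises and 12 largest falls among the genes with an approved-style symbol that passed. Each point is 1 array, gold for HF and blue for LPS+HF, circles for replicate 1 and triangles for replicate 2, and the grey line joins the group means; the groups do not overlap in any of the 24 genes, as in 53.7% of all genes tested.

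Of 20 cytokine genes tested 8 rose and 0 fell. Tnf, the early inflammatory cytokine, was 0.44 and 0.45 in HF and 4.32 and 4.33 in LPS+HF. The 2 values of each group were almost equal, and the difference of 3.89 ± 0.10 (adjusted p = 0.00635) was 14.8-fold. Il1b, which encodes the fever cytokine interleukin 1 beta, was -4.23 and -4.04 in HF, where 1 of 2 arrays was above background, and -0.31 and -0.43 in LPS+HF. Its rise was 3.77 ± 0.12 (adjusted p = 0.00737). Il6, which drives the acute-phase response, stood at -6.31 and -6.68 in HF, below background on both arrays, and at -1.55 and -1.90 in LPS+HF. The rise was at least 5.96-fold (adjusted p = 0.00874). Il1a, the cell-associated interleukin 1, rose at least 18.1-fold and the TNF family ligand Tnfsf15 at least 9.29-fold. The interleukin 1 receptor antagonist Il1rn rose at least 3.69-fold, the interleukin 36 gamma gene Il1f9 at least 3.98-fold, and the stress cytokine Gdf15 by 2.13. Values that did not pass included 1.20 for the anti-inflammatory Il10 and -0.12 for Il18. Since 7 of the 20 were dim in HF and were tested because they were bright in LPS+HF, their median is not used, and over all 29 members on the array the median was 0.58. The count of rises is affected in the same way: with only probes above background on all 4 arrays it was 2 of 12.

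Chemokines, which recruit blood cells, changed in both directions. Cxcl2, an attractant of neutrophils, was at -6.25 and -6.58 in HF, below background on both arrays. It was at -0.26 and -0.73 in LPS+HF, a rise of at least 13.98-fold (adjusted p = 0.0081). Cxcl10, an interferon-induced attractant of T cells, went from -2.26 and -2.13 to 3.56 and 3.54 (5.75 ± 0.10, adjusted p = 0.00376). Its replicates nearly coincided in either group. Ccl5, an attractant of T cells and monocytes, was -0.38 and -0.18 in HF and 5.48 and 4.63 in LPS+HF. The LPS+HF arrays differed more from each other here than for Cxcl10, and the rise was 5.33 ± 0.32 (adjusted p = 0.0154). Ccl9 rose by 1.999 and the monocyte attractants Ccl12 by 1.27, Ccl2 by 1.24 and Ccl4 by 1.098. The eosinophil attractant Ccl24, a gene of alternatively activated macrophages, fell instead. Its levels were 1.12 and 1.33 in HF and -1.45 and -1.53 in LPS+HF, low on both LPS+HF arrays (-2.71 ± 0.12, adjusted p = 0.00912). In all 7 of 13 tested chemokines rose and 1 fell, and without HF replicate 1 the counts were 4 and 1. The median over all 21 chemokines on the array was -0.04, and 8 of the 21 were too dim to be tested.

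The promoters of 3 of these genes are shown because they hold the NF-kB motif or the interferon-stimulated response element (ISRE) in the 250 bases before the start. Sequences and starts are those of RefSeq for GRCm38.p6, written on the strand of the gene, and the capitals mark the matches. The ISRE was searched as GAAA, any 2 bases and GAAA again, on both strands, and the NF-kB motif by its consensus of 10 bases, also on both strands. The windows are chr5:90903649-90903898 (plus strand) for Cxcl2, chr5:92348890-92349139 (minus strand) for Cxcl10 and chr5:30012864-30013113 (plus strand) for Il6. In Cxcl2 the match lay 97 to 87 bases before the start, and in Il6 44 to 35 bases before it. Cxcl10 held an ISRE match at 213 to 204 and NF-kB matches at 159 to 150 and 104 to 94; where 2 NF-kB matches overlap, their union is in capitals.
Cxcl2: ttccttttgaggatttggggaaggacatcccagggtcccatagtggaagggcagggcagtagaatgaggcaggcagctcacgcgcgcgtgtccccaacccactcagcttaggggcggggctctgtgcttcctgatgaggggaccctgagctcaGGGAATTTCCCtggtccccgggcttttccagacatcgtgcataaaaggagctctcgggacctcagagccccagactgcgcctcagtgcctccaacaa
Cxcl10: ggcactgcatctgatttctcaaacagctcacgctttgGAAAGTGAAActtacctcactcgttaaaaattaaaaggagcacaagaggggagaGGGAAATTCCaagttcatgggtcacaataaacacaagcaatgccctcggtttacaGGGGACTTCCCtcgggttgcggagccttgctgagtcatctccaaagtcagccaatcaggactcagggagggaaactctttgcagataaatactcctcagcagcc
Il6: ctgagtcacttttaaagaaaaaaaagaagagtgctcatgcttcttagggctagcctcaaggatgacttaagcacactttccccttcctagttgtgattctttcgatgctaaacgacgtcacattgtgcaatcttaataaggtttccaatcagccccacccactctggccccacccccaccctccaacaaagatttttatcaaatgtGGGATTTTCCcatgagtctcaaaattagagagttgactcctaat
The NF-kB motif stood in 22 of the 157 genes that rose and have a listed promoter (14.01%), in 6 of the 45 that fell (13.3%) and in 10.2% of the 10792 genes tested that have one. Over all 32851 promoters of the same length the share was 7.25%. A gene counted when any of its listed promoters matched, so the shares of genes and of single promoters are unlike measures. A match is a description of the letters, not of binding.

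Enzymes that mark the inflammatory state rose, while arginase fell. Acod1, which makes itaconate, was 1.80 and 1.72 in HF and 6.59 and 6.51 in LPS+HF (4.79 ± 0.10, adjusted p = 0.00485). Nos2, which makes nitric oxide when induced, was 0.73 and 0.96 in HF and 3.59 and 3.17 in LPS+HF. Both LPS+HF arrays stood above both HF arrays, by 2.54 ± 0.19 (adjusted p = 0.0223). Ptgs2 (cyclooxygenase 2) rose from -2.11 and -2.03 to 0.87 and 0.54, a difference of 2.78 ± 0.15 (adjusted p = 0.0131). The constitutive Ptgs1 fell by 1.44 log2 units. Arg1, which competes with Nos2 for arginine, was 0.25 and 0.49 in HF and -3.79 and -5.15 in LPS+HF. It was bright on both HF arrays and above background on 1 of the 2 LPS+HF arrays (-4.84 ± 0.49, adjusted p = 0.0387). The size of this fall depends on the dim LPS+HF signal and lay between -5.52 and -2.57 over the alternatives. The other 10 of the 15 tested enzymes and transporters of this list did not pass. Without HF replicate 1, 2 of them rose and 0 fell, and Nos2 and Arg1 were among those that no longer passed.

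Several genes of NF-kB signalling rose, among them inhibitors but also an adaptor, a kinase and a subunit. Nfkbia, the IkB alpha inhibitor, was 4.20 and 4.27 in HF and 7.09 and 6.95 in LPS+HF. The groups stood well apart (2.78 ± 0.11, adjusted p = 0.0081). The nuclear IkB protein Nfkbiz rose by 3.17, the ribonuclease Zc3h12a, which cuts cytokine transcripts, by 2.56, the ubiquitin editor Tnfaip3 (A20) by 2.36 and the adaptor Traf1 by 3.73. The Tnfaip3 partners Tnip3 and Tnip1 rose by 2.05 and 1.15, Bcl3 by 2.25, the kinase Ikbke by 2.18 and the subunit Nfkb2 by 1.15. Of 22 members tested 10 rose and 0 fell. Among the other 12 were the subunits Rela (0.13) and Relb (-0.76) and the cytokine signalling inhibitors Socs1 (-0.84) and Socs3 (0.35). The median over the 23 members on the array was 0.84.

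Among the sensors of LPS itself, the co-receptor Cd14 rose, and the receptor with its adaptor did not pass. Tlr4, the receptor, differed by -0.20, its partner Ly96 (MD-2) by 0.35 and the adaptor Myd88 by -0.15, none of which passed. Cd14 was 2.57 and 2.75 in HF and 4.35 and 4.18 in LPS+HF, higher on both LPS+HF arrays (1.61 ± 0.13, adjusted p = 0.0237). Tlr2, the lipoprotein receptor, rose by 1.84, its partner Tlr1 by 1.44, the peptidoglycan sensor Nod2 by 1.20 and the lectin Clec4e by 1.57. Irak3, an inhibitor in the TLR pathway, rose by 2.26. These 6 rises were among 23 members tested, with 0 falls. Without HF replicate 1 they were 2, and Cd14 and Clec4e were not among them.

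Of 42 interferon-stimulated genes tested 17 rose and 0 fell. Rsad2 (viperin), an antiviral enzyme, was -0.86 and -0.69 in HF and 3.32 and 2.89 in LPS+HF, far apart (3.88 ± 0.18, adjusted p = 0.00982). Ifit3, which binds into complexes on viral RNA, was -4.92 and -4.82 in HF, below background on both arrays, and -0.58 and -1.33 in LPS+HF. It rose at least 10.2-fold (adjusted p = 0.0201), although its close copy Ifit3b may share its signal. Ifi44 rose by 3.69, Oasl2 of the oligoadenylate synthetase family by 3.26, Rtp4 by 3.11, the ubiquitin-like Isg15 by 2.35 and the transcription factor Irf7 by 1.84. Ifit1 rose at least 3.79-fold and the restriction factor Trim30a at least 1.68-fold. The nucleotide kinase Cmpk2 rose by 2.54, the DNA sensor Ifi211 by 2.05, the nucleic acid sensor Zbp1 by 1.90, the membrane protein Ifitm3 by 1.72, Parp14 by 1.69, Ifit2 by 1.64, Phf11b by 1.38 and Oas2 by 1.35. Of the 42, 41 differed upward, with Stat2 (-0.12) the exception. Values that did not pass included 2.38 for Xaf1, 1.25 for the RNA sensor Ddx58 and 0.78 for Usp18, which removes Isg15. The median over all 46 members on the array was 1.29. The LPS+HF replicate 2 level lay below that of replicate 1 for Rsad2, Ifit3, Ifi44 and Oasl2. Without HF replicate 1 the count was 5 of 42, and Ifit3 and Ifi44 were among those that no longer passed.

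Of the 15 interferon-induced GTPases tested, which attack vacuoles that hold microbes, 3 rose and 0 fell. Gbp2 was -3.44 and -3.56 in HF and 1.499 and 0.701 in LPS+HF, with the replicates of LPS+HF apart by less than the groups (4.60 ± 0.29, adjusted p = 0.0177). Gbp3 rose by 3.87 and Gbp7, not well above background in HF, at least 1.63-fold. The other 12 of 15 did not pass, among them Gbp5 (1.24), Irgm1 (0.63), Igtp (0.54) and Iigp1 (-0.24). GBP genes form a cluster of close copies, and their probes may bind more than 1 of them. The median over the 18 members on the array was 0.40.

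The promoters of Ifit3 and Gbp2 are shown for their ISRE matches, again from RefSeq for GRCm38.p6, on the strand of the gene and with the matches in capitals. The windows are chr19:34583279-34583528 (plus strand) for Ifit3 and chr3:142620413-142620662 (plus strand) for Gbp2. In both genes the element lay on the opposite strand, so that it reads as its reverse complement. It stood 156 to 147 and 122 to 113 bases before the start of Ifit3, and 59 to 50 before that of Gbp2.
Ifit3: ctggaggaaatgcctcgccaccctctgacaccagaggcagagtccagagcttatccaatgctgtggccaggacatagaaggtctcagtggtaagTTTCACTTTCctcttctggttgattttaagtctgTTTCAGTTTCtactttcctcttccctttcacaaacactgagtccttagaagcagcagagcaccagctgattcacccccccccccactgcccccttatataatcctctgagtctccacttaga
Gbp2: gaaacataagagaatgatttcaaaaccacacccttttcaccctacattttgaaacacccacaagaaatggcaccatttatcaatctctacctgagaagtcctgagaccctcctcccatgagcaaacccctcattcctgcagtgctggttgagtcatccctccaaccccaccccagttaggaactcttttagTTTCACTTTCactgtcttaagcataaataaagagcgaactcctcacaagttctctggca
The ISRE stood in 20 of the 157 genes that rose and have a listed promoter (12.7%) and in 5 of the 45 that fell (11.1%). The share was 3.32% of the 10792 tested genes with a listed promoter. Counted over the 32851 single promoters, which is an unlike measure, it was 2.98%. In the interferon-stimulated list it stood in 12 of 33 tested members with a promoter (36.4%), and 7 of the 13 that passed held it. That list was drawn up for its response to interferon, so the share is no independent evidence.

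Complement genes rose in part. Cfb, a component of the alternative pathway, was -3.21 and -2.94 in HF and 1.99 and 1.24 in LPS+HF, high on both LPS+HF arrays (4.69 ± 0.29, adjusted p = 0.0163). The 3 chains of C1q, the starter of the classical pathway, passed together: C1qa rose at least 1.6-fold, C1qb by 1.22 and C1qc by 1.18. The receptor C3ar1 rose by 1.35. C3 itself was 1.58 and did not pass. Of 13 tested 5 rose, which became 1 without HF replicate 1, when the C1q chains and C3ar1 no longer passed.

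Of 15 surface molecules for contact with lymphocytes 5 rose and 0 fell. The co-stimulator Cd40 was 0.93 and 0.94 in HF and 2.91 and 2.78 in LPS+HF (1.91 ± 0.10, adjusted p = 0.0133). The ICOS ligand Icosl rose by 2.24, the adhesion molecule Icam1 by 1.17, Slamf9 by 1.30 and the activation antigen Cd69 at least 2.89-fold. Of 17 MHC class I and processing genes 0 passed, beside 1.55% of all genes tested; 15 of them differed upward and the median was 0.44, with 0.86 for tapasin (Tapbp) and 0.64 for H2-M3. Of 7 MHC class II genes 0 passed, which in lists this short is near that share. Cd74, the invariant chain, was 4.75 and 4.83 in HF and 5.42 and 5.26 in LPS+HF (0.55 ± 0.11, adjusted p = 0.134). The Cd74 arrays of the groups did not overlap, as in 53.7% of all genes tested.

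Of 23 inflammasome and cell death genes 5 rose and 0 fell. The death receptor Fas was -3.12 and -2.99 in HF and 1.00 and 0.85 in LPS+HF (3.98 ± 0.12, adjusted p = 0.00635), and the survival genes Bcl2a1d, a member of a family of close copies, and Birc3 rose by 2.16 and 1.36. Casp4 (caspase 11), which senses LPS inside the cell, rose by 1.88, and Cflar, an inhibitor of caspase 8, by 0.96. The other 18 of 23 did not pass, among them the inflammasome sensor Nlrp3 (0.44). Fas, Gdf15 and Gadd45a (1.99) were the 3 of 24 listed p53 targets that rose, while the p53 targets Cdkn1a (-0.11) and Mdm2 (0.48) did not pass. Slc7a11, the cystine importer, was -3.56 and -3.80 in HF and 0.49 and 0.48 in LPS+HF, with groups far apart (4.17 ± 0.13, adjusted p = 0.00635). With it Chac1 (1.98), Trib3 (1.19) and Mthfd2 (0.93) were the 4 of 21 genes of the integrated stress response that rose. Of 18 genes of the unfolded protein response 0 passed, which in a list this short is near the 1.55% of all genes tested. Their median was -0.15, and Herpud1 was 0.52.

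Of 25 genes linked to NRF2, glutathione and haem, Slc7a11 and the biliverdin reductase Blvrb (1.05) rose and 0 fell. Over all genes tested 1.15% rose and 0.397% fell, for comparison with the counts of this paragraph. Hmox1, the haem oxygenase, was high on all 4 arrays, at 5.41 and 5.38 in HF and 5.84 and 5.47 in LPS+HF, and its difference of 0.26 ± 0.16 did not pass (adjusted p = 0.447). The mitochondrial superoxide dismutase Sod2 differed by 2.06 and did not pass. Of 20 scavenger and uptake receptors, Marco and Stab1 (1.58) rose and 0 fell, while Msr1, another scavenger receptor, was 2.06 and did not pass. Among 28 immediate early genes and Dusp phosphatases, Myc rose at least 8.39-fold. Myc was dim on both HF arrays and was tested because it was bright in LPS+HF. Dusp6, a phosphatase that turns off ERK, fell from 1.998 and 2.063 to 0.53 and 0.31, low on both LPS+HF arrays (-1.61 ± 0.12, adjusted p = 0.0232).

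The falls with LPS included genes of alternatively activated macrophages and a migration receptor. Gpr183, a receptor for oxysterols that guides migration, was 0.74 and 0.84 in HF and -1.86 and -1.96 in LPS+HF (-2.70 ± 0.11, adjusted p = 0.0081). Il1r2, the decoy receptor of interleukin 1, was -2.01 and -1.98 in HF and -4.06 and -4.08 in LPS+HF. Its replicates were nearly equal, and it fell by 2.07 log2 units (adjusted p = 0.00912). Cd2, an adhesion molecule, was -1.22 and -1.09 in HF and -3.57 and -3.53 in LPS+HF and fell by 2.40 (adjusted p = 0.00909). Ipcef1 fell by 2.28, with its 3 probes between -2.28 and -1.83, and the hypoxia-responsive Ndrg1 by 0.98. Of 15 tested genes of alternative activation, Arg1, Ccl24 and Il1r2 fell, Myc rose and 11 did not pass. Mrc1, the mannose receptor, differed by -0.18 and Chil3 by -0.21.

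Several other large falls rest on probes that were near background outside the HF arrays. Samt3, Ssxb8 and Papln, with spots in rows 126, 100 and 151, were above background on both HF arrays and on no other array of the study, like the probes left aside in rows 1 to 70. Samt3 was -2.10 and -2.76 in HF and -6.64 and -6.77 in LPS+HF, a fall of at least 3.92-fold (adjusted p = 0.015). In all 5 of the 86 genes that fell were of this kind, and 81 genes fell when such probes were left aside in every row. With those of rows 1 to 70 kept instead, 108 genes fell. Kcnq1, a potassium channel with its spot in row 8, fell at least 5.12-fold and Ddc, the decarboxylase of dopamine synthesis, at least 1.81-fold. Each was above background on 1 of the 4 arrays without HF, where LPS minus control was 0.89 and 0.69. Kif26a and Rasgef1a fell at least 2.07-fold and 1.65-fold and were not bright on the HF arrays alone. Both control arrays were above background too, at -3.60 and -3.07 for Kif26a and -3.26 and -3.91 for Rasgef1a. Neither LPS array was, and LPS minus control was -2.92 and -1.75.

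In the gene groups of cell growth and metabolism the number of passes was near the 1.55% of all genes tested. Among 35 mitosis genes, 36 DNA replication genes, 42 subunits of oxidative phosphorylation, 28 genes of sterol and fatty acid synthesis, 20 of cholesterol efflux and lipid droplets and 34 lysosome genes, 0 passed. Their medians lay between -0.15 and 0.12 log2 units, beside -0.08 over all genes. The members furthest from 0 whose groups did not overlap included Mvd of sterol synthesis (0.83), the lipoprotein lipase Lpl (-0.71), the apolipoprotein Apoc4 (-1.74) and the proton pump subunit Atp6v0d2 (-1.40). Of 30 glycolysis and hypoxia genes Ndrg1 fell and 29 did not pass. Of 10 matrix proteases and inhibitors 0 passed, with 1.77 for Mmp9 (adjusted p = 0.0557), not well above background in HF, and -1.19 for Stfa2l1. Some members were low on HF replicate 1 and not on HF replicate 2: the replication gene Gins2 was 1.18 and 3.33 in HF and 3.21 and 3.30 in LPS+HF. The same was seen for Sdhd (5.05 and 6.82 in HF), Cyp51 (-2.18 and -0.60) and Bub1b (1.89 and 3.15). They were low on control replicate 1 too, where Gins2 was -0.27, Sdhd 4.35, Cyp51 -2.31 and Bub1b -0.20, against 3.24, 6.68, -0.01 and 2.49 on control replicate 2. Without HF replicate 1 the differences of these genes turned negative, at -0.07, -0.20, -0.05 and -0.10 in the same order. Of 15 homeostatic microglia genes 0 passed, with -0.45 for Tmem119 and 0.68 for the fractalkine receptor Cx3cr1. Of 15 housekeeping genes 0 passed; Actb was 9.22 and 9.03 in HF and 8.77 and 8.93 in LPS+HF (-0.27 ± 0.13, adjusted p = 0.361), and its sign changed to 0.01 in 1 of 20 alternatives.

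**Figure D3:**
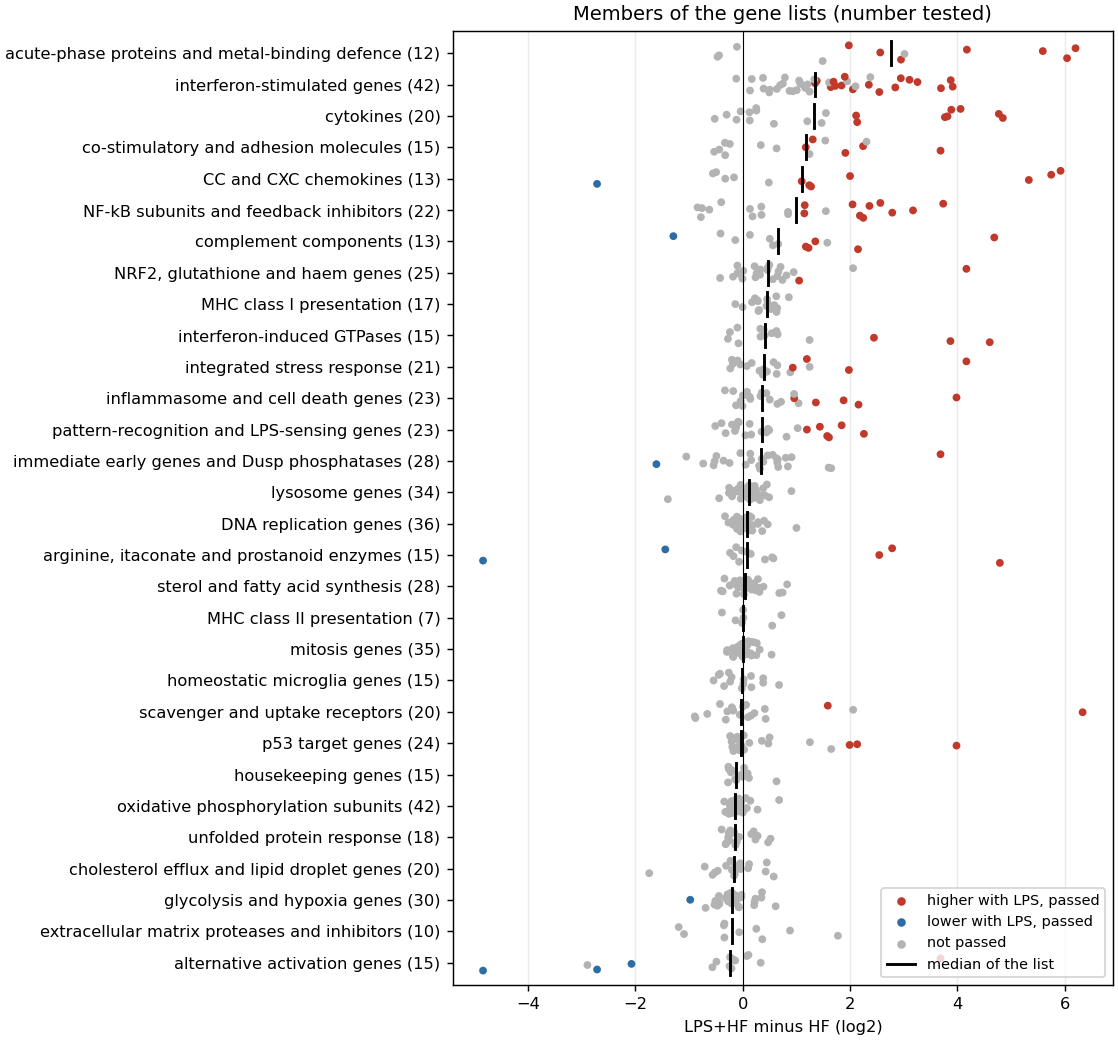
Difference LPS+HF minus HF (log2, horizontal axis) of each tested member of the 30 gene lists, with the number tested in brackets. Red points passed higher, blue points passed lower, grey points did not pass and the black bar is the median of the tested members; red points stand in the cytokine, chemokine, acute-phase, NF-kB and interferon-stimulated lists among others, and the order of the lists by the bar carries no test, since some members were tested because they were bright in LPS+HF.

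The response with HF was set beside that without HF, LPS minus control, which uses none of the same arrays. The 2 responses share their layout on the slide, with control in columns 1 and 2 and LPS in columns 3 and 4, like HF and LPS+HF. Column and LPS cannot be told apart in either response. The arrays without HF stood in row 1 of the slide and those with HF in row 2, so row and HF cannot be told apart. Of the 250 genes that rose with HF, 231 (92.4%) had the same sign without HF, and of the 86 that fell 77 (89.5%), against 68.4% of all 21669 genes. Median sizes were close, 1.87 with HF and 1.94 without for the genes that rose, and -1.42 and -1.47 for those that fell. Since the genes were chosen by the response with HF, these medians are a description. Over all genes the 2 responses correlated with Pearson r = 0.54 and Spearman rho = 0.47; genes are not independent replicates. Control replicate 1 was uneven, with a coefficient of variation of 48.9% among repeated probes, and with control replicate 2 alone the shares of same sign were 94.0% and 86.0%.

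Medians over the tested members of a gene group, which leave out the members too dim to test, are given as a description with no test. They were 1.34 with HF and 1.91 without for interferon-stimulated genes. For genes of the NF-kB list they were 1.00 and 0.99. Mitosis genes stood at 0.00 with HF and -0.48 without, and homeostatic microglia genes at -0.02 and -0.52. With control replicate 2 alone the values without HF were 1.86, 1.41, -0.44 and -0.51, in the same order of groups.

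The test of the difference between the responses, fitted in limma on all 8 arrays, called 0 genes, with 2484 at an unadjusted p under 0.05 and a smallest adjusted p of 0.0904. A p that misses the threshold does not show that the responses were alike. Among the inflammatory genes the difference with LPS was 3.89 for Tnf with HF and 2.66 without (adjusted p of the difference = 0.152). Cxcl2 had the same order, 5.92 and 2.91 (adjusted p = 0.141). Il6 stood the other way, at 4.77 and 7.52 (adjusted p = 0.141), and so did Il1b, at 3.77 and 6.15 (adjusted p = 0.167). Cxcl2 and Il6 were below background on all arrays without LPS, and Il1b on both control arrays and 1 HF array, so their fitted values depend on dim signals. The Il1b rise with HF lay between 1.88 and 3.88 over the alternatives. Cxcl10 was nearly equal, 5.75 and 5.79, with a difference of -0.04 ± 0.21. Nos2 was 2.54 and 2.86, and Hmox1 0.26 and 1.82 (adjusted p = 0.169).

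Genes with opposite signs in the responses were few among those named. C1qa, C1qc and C3ar1 rose with HF, while without HF they were -0.21, -0.81 and -0.69; the adjusted p of the difference was 0.214 for C3ar1. With control replicate 2 alone the values without HF were 0.45 for C1qa, of the same sign as with HF, and -0.71 and -0.22 for C1qc and C3ar1. Papln and Ssxb8, which fell with HF, changed the other way. They were -0.65 and -0.96 without HF, and 1.02 and 0.45 with control replicate 2 alone, from signals below background on all arrays without HF. Cx3cr1, whose difference of 0.68 with HF did not pass, had a fitted value of -2.31 without HF and the smallest adjusted p of all differences. Both LPS arrays were below background for Cx3cr1, so the sizes of these values depend on dim signals. With the mean over the 2 probes of Cx3cr1 in place of the brighter one, that difference was 3.20 ± 0.17 (adjusted p = 0.0299). Arg1 and Il1r2 were lower with LPS in both responses, with fitted log2 differences of -4.84 and -2.07 with HF and -7.31 and -5.03 without, and the difference of responses passed for neither (adjusted p = 0.255 and 0.206). Il1r2 was below background on both LPS arrays and Arg1 on 1 LPS+HF array, so these sizes are not exact.

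**Figure D4:**
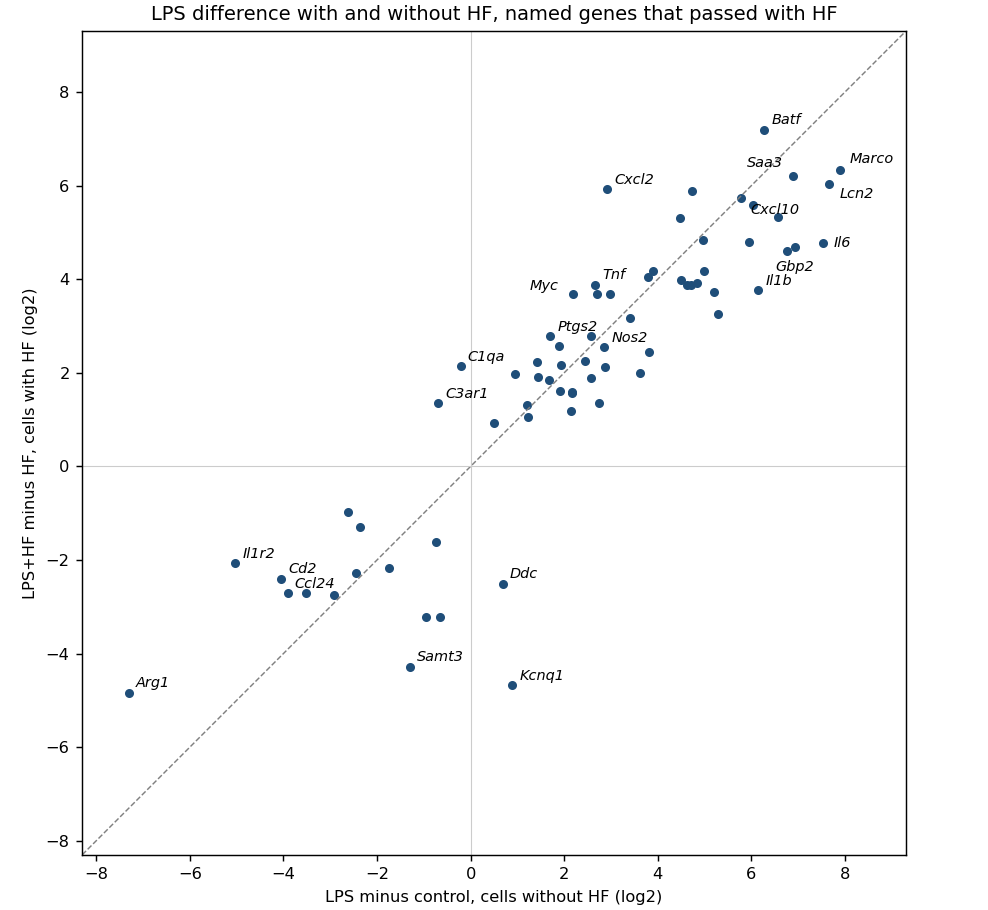
Difference LPS+HF minus HF (log2, vertical axis) against LPS minus control (log2, horizontal axis) for the 70 named genes that passed with HF, each point 1 gene; the dashed line marks equal responses. Most points lie in the upper right and lower left, Tnf and Cxcl2 above the line and Il6 and Il1b below it. C1qa, C3ar1, Kcnq1 and Ddc lie in the quadrants of opposite sign, where C1qa stands only with control replicate 1 included. Papln and Ssxb8 would stand there with control replicate 2 alone.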

How the data were processed

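RNA of 8 BV-2 samples was hybridised to single-colour Agilent arrays, of which 4 enter the comparison. Per the file headers, the intensity of each spot was made by Agilent Feature Extraction 11.5.1.1, which subtracted background and corrected trends across the array; the flags for outlier spots and for spots well above background were deposited with it. The deposited series matrix holds the authors' log2 values, which matched these signals, with brighter as higher, once the 75th percentile of each array and then each probe's median were subtracted.

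Here the log2 of the processed intensity was averaged over a probe's spots, outliers left out, and the 75th percentile of the array was subtracted. The filter kept the 29153 probes that both HF arrays or both LPS+HF arrays showed well above background, and the kept probe with the highest mean stood for its gene (21669 genes). RefSeq accessions gave a symbol to 28026 of 55681 probes (50.3%); the others kept the name in the files. Group differences were fitted with limma 3.58.1 in R 4.3.3 on the 4 arrays (2 residual and 2.22 prior degrees of freedom), and the difference of responses on all 8. The number of arrays limits the precision, and no spot was saturated. A gene passed at a Benjamini-Hochberg adjusted p under 0.05. Folds marked "at least" set the bright group's mean against the dim probe's own signal or, if higher, the lowest signal above background, which is not the probe's own limit.

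The members, the lists of genes and the use of the 4 arrays alone were chosen with earlier results of these data known. The genes named are the 12 largest rises and falls with an approved-style symbol, the 4 largest changes that passed in each list (2 values where none did), and Nos2, Arg1, Tnf, Il6, Il1b, Ptgs2, Hmox1 and Actb; further list and marker members were named after their values were seen. Alternatives changed the background correction, scaling, filter, probes per gene, variance, uneven regions of the arrays, the samples fitted and the replicate block. The probes that were bright only on HF arrays in any row were left aside in an alternative chosen after seeing the data. The fit was tested on simulated data. Some gene results are not reported here. Promoters came from RefSeq for GRCm38.p6. Tables and plots were made with Python 3.11.15, pandas 2.3.3 and matplotlib 3.10.9.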

Additional observations from a re-analysis of the deposited data

How the results depend on the processing

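Across 20 refits, 0 of the 70 named genes that passed changed sign, which was in part fixed in advance. The groups did not overlap in any gene that passed, so leaving out an array could not change a sign. Refits that changed only the variance, the replicate block or the arrays added kept the same differences, and the authors' matrix holds nearly the same signals. The count of 336 genes (250 higher, 86 lower) stayed within 1.5 times, at 310 to 482 genes, with normexp, quantile normalization, the authors' matrix, probes above background on all arrays, other uses of a gene's probes, a 2-fold threshold, the local spatial correction, spots in rows 1 to 70 left out, and probes bright only on HF arrays kept or left aside in every row. It rose to 515 (394 higher) with median scaling, to 1133 (668 higher, 465 lower) with a trended and robust variance, and to 928 (580 higher, 348 lower) with the LPS arrays added to the fit. With all 8 arrays in the fit 240 passed, 54 of them lower, and 203 genes were shared. Without the filter on dim probes 36506 genes were tested and 0 passed (0 higher, 0 lower), with 3466 at an unadjusted p under 0.05 in limma. With the replicate block 22 passed (22 higher, 0 lower), all among the 336. The deviations of same-numbered HF and LPS+HF arrays correlated at -0.089, the lowest of all pairs of groups, and the highest pair stood at 0.263. Whether same-numbered arrays share more than a number was not tested. Leaving out each array in turn gave 0 to 935 genes (0 to 668 higher, 0 to 267 lower), with 185 (125 higher) without HF replicate 1; the spread of a lone array was taken from the other group. The cause of these shifts was not tested.

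The difference of the responses gave 1 gene (Cx3cr1, 1 higher) with the mean over probes, 1 gene (Olfr1317, 1 lower) with the probes bright only on HF arrays kept, and 0 otherwise among the alternatives that kept all arrays. Leaving out each array gave 0 to 8069 genes (0 to 4613 higher, 0 to 3456 lower): 2 unnamed probes, lower, without HF replicate 2, and 8069 without control replicate 2, when the uneven control replicate 1 stood alone. Lists with medians near 0, housekeeping and homeostatic microglia genes among them, changed sign between scalings. With a single slide and scan, neither could be fitted as a block.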
